A study of Mus musculus with 14 samples.

Results

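The 37 genes described here carry out homologous recombination, the Fanconi anaemia pathway of crosslink repair, and the DNA damage checkpoint. They are Brca1, Bard1, Palb2, Brca2, Rad51ap1, Rad51c, Rad51d, Xrcc2, Xrcc3, Rad54l and Rad54b of the BRCA complexes and strand exchange, Fanca, Fancb, Fancc, Fance, Fancg, Fancl, Fancm, Ube2t, Fancd2 and Fanci of the Fanconi pathway, Mre11a, Rad50, Nbn, Rbbp8, Exo1, Blm and Brip1 of end resection and DNA unwinding, Atm, Atr, Chek1 and Chek2 of the checkpoint kinases, Clspn, Topbp1, Trp53bp1 and Mdc1 of the checkpoint mediators, and Msh6 of mismatch recognition. They were chosen by name for their known function, with earlier results of these data known, as 37 of the 30503 genes in the deposited count table. All 37 were among the 17358 genes with enough reads to be tested, so no member was lost to the filter on low counts.

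The series holds bulk RNA-seq of 14 clones, each grown from 1 tdTomato+ cell of mouse femoral bone marrow, from which the ends of the femurs with their growth plates had been cut away. Fgfr3-WT (P23) is 5 clones from Fgfr3-creER; R26R(tdTomato/+) mice at 23 days of age, taken at passage 8. Fgfr3-p53 cKO (P28) is 5 clones from Fgfr3-creER; Trp53fl/fl; R26R(tdTomato/+) mice at 28 days, also at passage 8, and Fgfr3-p53 cKO (P4M) is 4 clones of that same genotype from mice of 4 months, at passage 6 to 8. Mice of all groups had received tamoxifen at postnatal day 21, and cells of all groups carry the Fgfr3-creER transgene and the tdTomato reporter. The creER enzyme is made where the Fgfr3 transgene is active, so the marked cells are those that used it at the time of the pulse. Each sample is the progeny of 1 cell that outlived many passages, and the labels do not say which clones came from the same mouse, so that p-values measure the spread between clones. The sample names of the Fgfr3-WT clones carry one leading number and those of all Fgfr3-p53 cKO clones another. What that number marks is not stated, and whatever it marks cannot be told apart from genotype, which also goes with age in both comparisons against Fgfr3-WT. Each clone had between 25688946 and 52857424 counted reads, with 25688946 to 38958693 in Fgfr3-WT, 37606033 to 48648618 in P28 and 43757832 to 52857424 in P4M.

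Homologous recombination repairs a broken chromosome by copying the intact sister. The ends are first trimmed back to single strands by the MRE11 complex and nucleases, BRCA1 and BRCA2 with their partners then prepare those strands for pairing with the sister, and helicases undo the joined molecules afterwards. The Fanconi proteins recognise crosslinks between the strands and mark the FANCD2 and FANCI pair with ubiquitin, while ATM and ATR signal damage and stalled forks through CHEK2 and CHEK1. The sister copy exists only after replication, and many genes of these pathways are known to be transcribed mainly in cells that are passing through S and G2 phase. p53 lies downstream of the checkpoint kinases and halts the cycle when it is activated.

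The genotype was checked first on Trp53 itself (ENSMUSG00000059552, chr11:69580359-69591873). Fgfr3-WT clones held 55.0 ± 7.68 CPM of it (SD, n = 5), P28 clones 2.47 ± 0.244 (SD, n = 5) and P4M clones 2.10 ± 0.278 (SD, n = 4), where CPM is the count scaled to a library of fixed size, and no cKO clone came near a Fgfr3-WT clone. Markers were read in the same way. Of the stromal markers, Pdgfrb, Runx2 and Twist1 were found in all 14 clones, at 233.1, 35.3 and 38.1 CPM or more. Others were absent or nearly so in some clones. Sp7, Alpl and Cxcl12 were each 0 in 1 Fgfr3-WT clone, Lepr in 2 Fgfr3-WT clones and Thy1 in 4 cKO clones. Col1a2 went down to 0.0326 CPM in Fgfr3-WT and Prrx1 to 4.53 CPM in P28. Collagen I was much lower in the Fgfr3-WT clones, where Col1a1 ran from 1.45 to 1029 CPM against 14680 to 22010 CPM in P28 and 7377 to 50640 CPM in P4M. The summed level of the 13 stromal markers was 1877 ± 2430 CPM (SD, n = 5) in Fgfr3-WT, 36380 ± 6425 CPM (SD, n = 5) in P28 and 46490 ± 29810 CPM (SD, n = 4) in P4M, and in Fgfr3-WT it was highest in replicate 5, at 6203 CPM, beside a median of 817.1 CPM. Over all cKO clones 6 of the 13 were called higher, Col1a1, Runx2, Sp7, Alpl, Lepr and Twist1, and 1 lower, Fgfr3, at 12.6 to 129.1 CPM in Fgfr3-WT, 2.54 to 39.0 in P28 and at most 14.2 in P4M. For blood cells, the 13 markers in the count table summed to 62.9 ± 49.8 CPM (SD, n = 5) in Fgfr3-WT, 11.8 ± 7.34 (SD, n = 5) in P28 and 7.75 ± 2.35 (SD, n = 4) in P4M, with Lyz2 the most abundant in most clones (up to 90.6 CPM), while the pan-leukocyte gene Ptprc never passed 0.154 CPM and Tyrobp was 0 in 9 clones. Only 4 of the 13 had enough reads to be tested, of which Lyz2 and Cd68 were called lower over all cKO clones, and Csf1r and Fcer1g, at 1.46 and 1.70 CPM or less, were called higher. The 6 endothelial markers in the table summed to at most 11.5 CPM except in P4M replicate 3, where Vwf alone gave 236.9 CPM, and the defining endothelial gene Cdh5 was 0 in all 14 clones. Their sum was at most 3.78 CPM in Fgfr3-WT, 0.743 to 5.69 in P28 and at least 7.29 in P4M. Only 2 of the 6 had enough reads to be tested. Kdr was called higher at each age and over all cKO clones, with up to 0.569 CPM in Fgfr3-WT and 2.59 to 12.6 in P4M. Vwf was called higher at P4M, against Fgfr3-WT and against P28. The 5 red cell markers in the table summed to at most 0.445 CPM. The part of these marker differences in the values below was not tested. In bulk RNA a lower level can mean fewer cells using a gene or less of its RNA per cell, and these cannot be told apart.

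Against Fgfr3-WT, the 9 Fgfr3-p53 cKO clones together had higher RNA of 19 of the 37 genes and lower RNA of none (edgeR quasi-likelihood test, adjusted p below 0.05). That is 51.4% of the members, beside 23.1% of all 17358 genes called higher and 25.7% called lower in the same comparison. By role, the called genes were 7 of 11 BRCA and strand exchange genes, 2 of 8 genes of the Fanconi core complex and its E2 enzyme, both genes of the FANCD2 and FANCI pair, 4 of 7 resection and helicase genes, 1 of 4 checkpoint kinases and 3 of 4 mediators, and not the 1 gene of mismatch recognition. In the Fanconi core and the kinases this is near the share of all genes, and nothing is read from it. The median log2 fold change was 0.78 over the members and -0.05 over all genes tested. In 15 members (40.5%) every cKO clone lay above every Fgfr3-WT clone, a pattern that held for 9.73% of all genes tested, and in none did every cKO clone lie below, against 8.38% of all genes.

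The sizes fell into uneven classes. Of the called genes, 7 rose at least 8-fold (Brca1, Rad51ap1, Rad54l, Fancd2, Exo1, Brip1 and Clspn), 8 rose from 2-fold to under 8-fold, and 4 rose by less than 2-fold. The 7 leading genes were low in the Fgfr3-WT clones, with 6 to 163 counts each per clone, and had 158 to 1731 counts in the cKO clones. With limma on log2(TPM + 1), where the pseudocount of 1 understates the change of low genes, the log2 fold changes of these 7 were smaller, from 1.60 for Brip1 to 2.67 for Rad51ap1, and all 7 passed the test. The remaining 18 members did not pass the test. Among them, Rad51c, Rad51d, Fance, Fancg, Fancl, Atm, Atr and Trp53bp1 had a log2 fold change below 0, from -0.41 to -0.00. All 37 are shown by role in the plot of log2 fold changes.

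**Figure D1:**
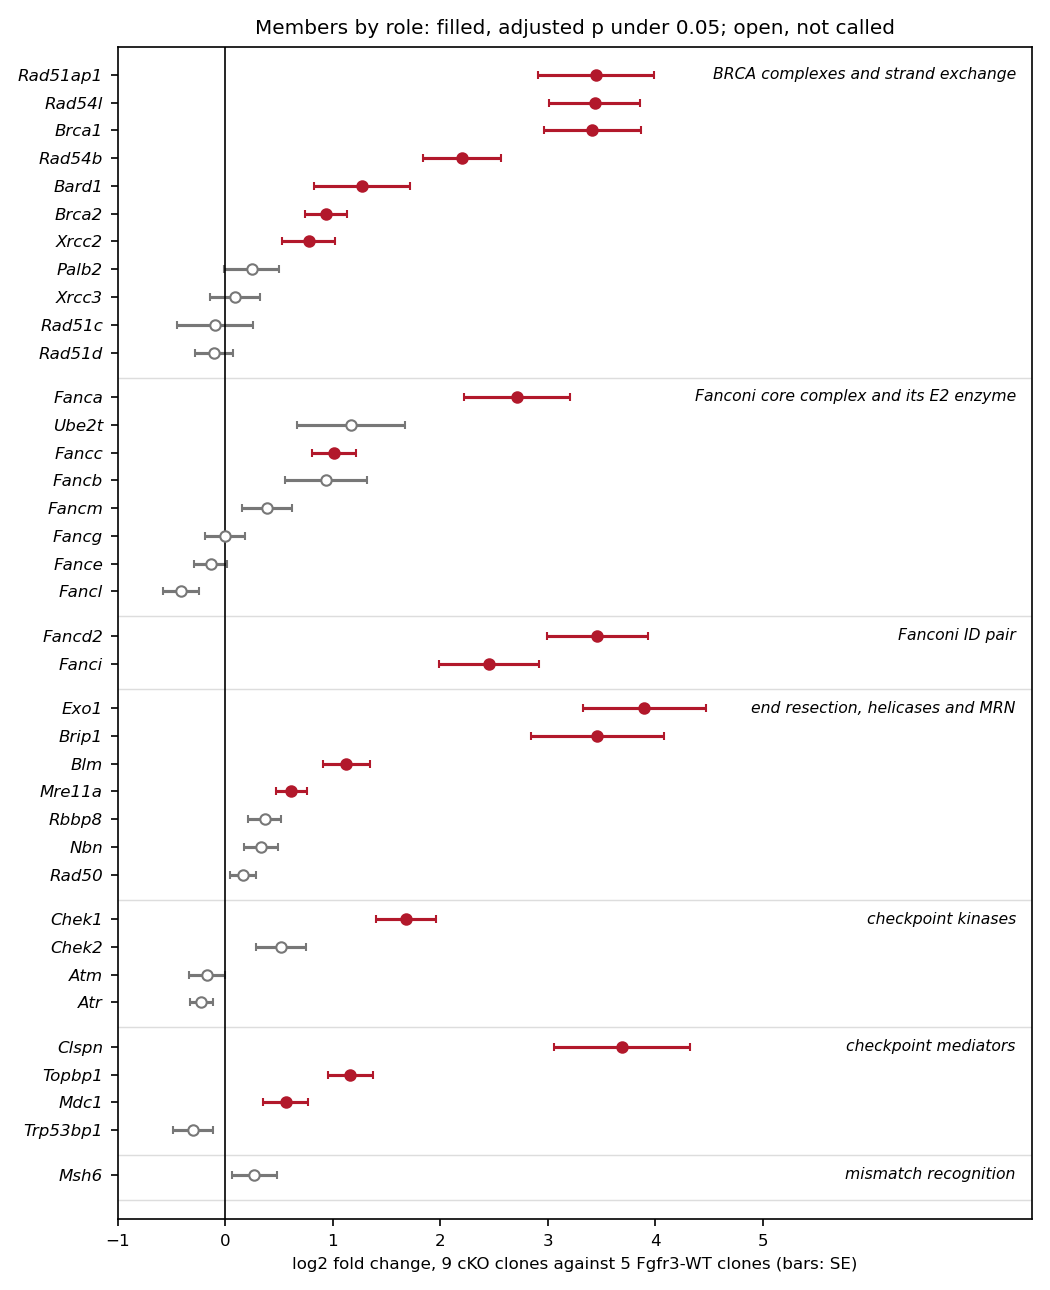
Log2 fold change of each of the 37 genes in all 9 Fgfr3-p53 cKO clones against the 5 Fgfr3-WT clones (horizontal axis), with bars of 1 standard error, grouped by role. The 19 called genes lie to the right of 0, up to 3.90 for Exo1, and the 18 others run from -0.41 for Fancl to 1.17 for Ube2t.

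The comparisons of each age with Fgfr3-WT share the same 5 control clones, so they are given side by side and not as independent evidence. At P28, 19 members were called higher (background 19.2% of all genes) and 2, Fancl and Atr, were called lower (background 19.7%). At P4M, 20 were called higher (background 22.3%) and none lower (background 23.6%). The median log2 fold change of the members was 0.77 at P28, beside -0.02 over all genes, and 0.78 at P4M, beside -0.06 over all genes. The number called higher at both ages was 17. The share of all genes called higher at both ages was not counted, so nothing is read from this number. Fancb and Mdc1 passed the test at P28 only, while Bard1, Nbn and Rbbp8 passed it at P4M only. In the same fit, none of these 5 was called between the ages.

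Between the ages, P4M against P28, no member was called in either direction by edgeR, while 3.34% of all genes were called higher and 3.88% lower. DESeq2 also called no member, beside 6.23% of its genes higher and 7.95% lower. The members' median log2 fold change was -0.04, beside -0.01 over all genes. An unadjusted p below 0.05 was reached by 4 members, Fancg, Mre11a, Rbbp8 and Atr, beside 25.8% of all genes. A fit of these 9 clones alone called 2 of them higher at P4M, Rbbp8 and Atr, beside 8.75% of all genes. Every P4M clone lay above every P28 clone for Rbbp8 and Atr and below for Xrcc3 and Fancg, patterns held by 9.07% and 9.96% of all genes, so the members' shares are no larger than those of all genes.

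The starts of the genes were read for sequence features. RefSeq promoters on GRCm38.p6 were matched for 29 of the 37 members (not for Rad51d, Exo1, Rbbp8, Nbn, Rad50, Fancd2, Xrcc2 and Rad54b), and the 250 bases before each start were searched on both strands for 3 motifs of cell cycle promoters. The CCAAT box (CCAAT) was found in 18 of 29 members, beside 37.5% of the 27025 genes in the table (1 or more promoters each). An E2F site (TTTGGCGC, TTTCGCGC, TTTCCCGC or TTTGCCGC) was found in 6, Bard1, Brca2, Fancg, Chek2, Topbp1 and Mdc1, beside 2.16% of all genes. The cell cycle homology element (TTTGAA) was found in Bard1 alone, beside 18.3% of all genes. No 2 of these words overlapped. By call, the CCAAT box was in 10 of 15 genes called higher and 8 of 14 not called, and the E2F site in 4 of 15 and 2 of 14. A match describes the letters and is not a measured binding site.

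To show what these words look like in genes that rose strongly, modestly or not at all, the stretches before 5 starts are printed 5′ to 3′ on the strand of the gene, with matches in capitals. Brca1 (chr11:101551956-101552205, minus strand) holds 1 CCAAT box from 86 to 82 bases before the start. Brip1 (chr11:86201194-86201443, minus strand) holds 3 on the opposite strand, read as ATTGG, the nearest from 34 to 30 bases before the start. Brca2 (chr5:150522371-150522620, plus strand) has an E2F site on the opposite strand from 168 to 161. Mdc1 (chr17:35841248-35841497, plus strand) has a CCAAT box from 75 to 71 and an E2F site from 16 to 9. Atr (chr9:95857347-95857596, plus strand), which was not called in all cKO clones, holds none of the 3.
Brca1: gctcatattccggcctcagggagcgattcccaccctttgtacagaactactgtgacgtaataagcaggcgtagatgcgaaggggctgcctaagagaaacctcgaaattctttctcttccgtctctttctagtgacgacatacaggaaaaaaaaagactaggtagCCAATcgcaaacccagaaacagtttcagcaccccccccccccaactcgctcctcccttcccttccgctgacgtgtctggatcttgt
Brip1: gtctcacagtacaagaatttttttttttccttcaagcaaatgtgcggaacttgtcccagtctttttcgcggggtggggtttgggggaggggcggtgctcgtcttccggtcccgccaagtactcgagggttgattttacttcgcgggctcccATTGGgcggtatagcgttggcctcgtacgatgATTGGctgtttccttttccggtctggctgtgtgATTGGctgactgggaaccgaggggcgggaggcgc
Brca2: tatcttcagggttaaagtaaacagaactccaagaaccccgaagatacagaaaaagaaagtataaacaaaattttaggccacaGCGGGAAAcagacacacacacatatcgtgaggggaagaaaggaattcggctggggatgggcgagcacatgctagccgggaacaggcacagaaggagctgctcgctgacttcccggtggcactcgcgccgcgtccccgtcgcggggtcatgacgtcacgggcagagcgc
Mdc1: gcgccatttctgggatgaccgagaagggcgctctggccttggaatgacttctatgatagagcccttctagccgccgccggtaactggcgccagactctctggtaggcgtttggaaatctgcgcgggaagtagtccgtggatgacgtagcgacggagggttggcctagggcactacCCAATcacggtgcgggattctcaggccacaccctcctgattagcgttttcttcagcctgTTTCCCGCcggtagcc
Atr: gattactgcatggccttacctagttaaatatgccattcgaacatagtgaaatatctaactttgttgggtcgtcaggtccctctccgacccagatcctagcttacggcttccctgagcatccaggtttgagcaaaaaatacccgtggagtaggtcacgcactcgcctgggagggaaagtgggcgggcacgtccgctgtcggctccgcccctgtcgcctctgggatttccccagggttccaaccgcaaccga

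Among the genes of the BRCA complexes and strand exchange, the 3 with the largest changes rose by more than 8-fold. Brca1 (ENSMUSG00000017146, chr11:101488764-101551955, minus strand), the ubiquitin ligase that directs breaks to recombination, was measured at 2.02, 0.918, 1.38, 3.73 and 1.19 CPM in the Fgfr3-WT clones, 6.45, 16.2, 18.4, 19.6 and 28.3 in the P28 clones and 12.97, 15.6, 28.4 and 30.9 in the P4M clones, in order of replicate number. Rad51ap1 (ENSMUSG00000030346, chr6:126923050-126939587, minus strand), which helps strands to pair, was at 0.652, 0.383, 0.850, 2.90 and 0.989 CPM in the Fgfr3-WT clones, 4.93, 9.23, 9.76, 15.6 and 21.01 in the P28 clones and 8.03, 9.29, 18.1 and 18.3 in the P4M clones. Rad54l (ENSMUSG00000028702, chr4:116094264-116123690, minus strand), a motor protein of strand exchange, was at 0.554, 0.497, 0.930, 1.76 and 1.15 CPM in the Fgfr3-WT clones, 6.02, 10.5, 8.69, 13.1 and 19.5 in the P28 clones and 6.78, 5.99, 14.1 and 12.3 in the P4M clones. In each of the 3, the highest Fgfr3-WT clone was replicate 4 and still lay below every cKO clone. The lowest cKO clone was 1.73 times the highest Fgfr3-WT clone for Brca1, 1.70 times for Rad51ap1 and 3.39 times for Rad54l, the widest gap among the members. Brca1 was 10.6-fold higher (log2 fold change 3.41 with SE 0.450, adjusted p = 7.2e-05), Rad51ap1 10.9-fold (log2 fold change 3.45 with SE 0.539, adjusted p = 0.000224) and Rad54l 10.8-fold (log2 fold change 3.44 with SE 0.422, adjusted p = 4.27e-05).

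Brca2 (ENSMUSG00000041147, chr5:150522630-150570329, plus strand), which acts on the resected ends, started from a higher level. It was at 7.53, 6.50, 8.09, 6.97 and 6.17 CPM in the Fgfr3-WT clones, 9.10, 12.7, 13.9, 15.3 and 19.4 in the P28 clones and 10.5, 10.6, 12.96 and 17.5 in the P4M clones. The groups did not overlap, and the rise was modest at 1.91-fold (log2 fold change 0.93 with SE 0.194, adjusted p = 0.00152). In TPM, with limma on log2(TPM + 1), the log2 fold change of Brca2 was 0.36 and did not pass the test (adjusted p = 0.138). Rad54b, a second RAD54-type motor, rose 4.59-fold (log2 fold change 2.20 with SE 0.363, adjusted p = 0.000316), and Xrcc2, a subunit of a strand exchange complex, rose 1.71-fold (log2 fold change 0.78 with SE 0.244, adjusted p = 0.0178). Bard1, the obligate partner of BRCA1 in its ligase, rose 2.42-fold (log2 fold change 1.27 with SE 0.450, adjusted p = 0.0315). The clones of Xrcc2 and of Bard1 overlapped between genotypes, and those of Rad54b did not.

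The related genes Rad51c, Rad51d and Xrcc3, and Palb2, the bridge between BRCA1 and BRCA2, did not pass the test. Rad51c (ENSMUSG00000007646, chr11:87376645-87404954, minus strand), which forms complexes with the products of Xrcc2, Xrcc3 and Rad51d, was at 19.1, 4.55, 4.09, 6.69 and 4.71 CPM in the Fgfr3-WT clones, 4.71, 6.05, 6.54, 8.34 and 9.48 in the P28 clones and 6.97, 6.64, 9.70 and 7.31 in the P4M clones. Fgfr3-WT replicate 1 stood far above all other clones, and with it the log2 fold change was -0.09 (adjusted p = 0.843). Without that clone it was 0.54 (adjusted p = 0.0612), so its direction rests on 1 library. Rad51d (ENSMUSG00000018841, chr11:82876434-82890614, minus strand), another subunit, was at 16.1, 10.98, 11.2, 13.1 and 11.2 CPM in the Fgfr3-WT clones, 10.99, 12.5, 13.9, 6.97 and 8.27 in the P28 clones and 12.3, 13.5, 11.9 and 13.9 in the P4M clones (log2 fold change -0.10 with SE 0.175, adjusted p = 0.653), with all groups overlapping. Xrcc3, whose Fgfr3-WT replicate 1 also stood above the rest at 16.6 CPM, had a log2 fold change of 0.09 (adjusted p = 0.77), and Palb2 of 0.25 (adjusted p = 0.449).

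**Figure D2:**
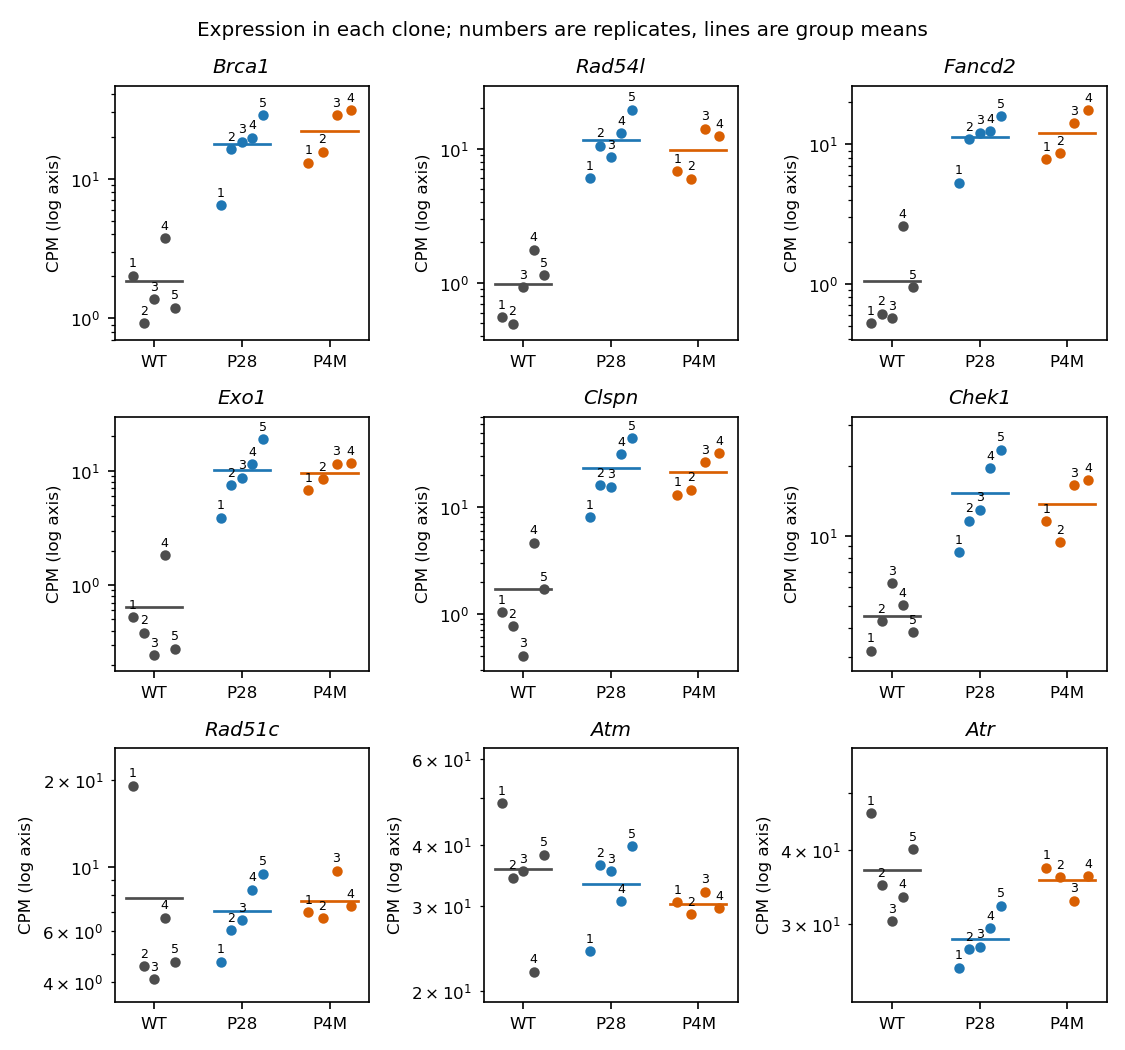
CPM in each clone (vertical axis, log scale) of 9 genes in the 3 groups, where the printed numbers are replicate numbers and the lines are group means. Brca1, Rad54l, Fancd2, Exo1, Clspn and Chek1 do not overlap between Fgfr3-WT and Fgfr3-p53 cKO clones, while Rad51c, Atm and Atr do.

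Within the Fanconi pathway, both genes of the pair that receives the ubiquitin were called higher. Fancd2 (ENSMUSG00000034023, chr6:113531682-113597017, plus strand), which holds crosslinked chromatin once it is ubiquitinated, was at 0.521, 0.612, 0.566, 2.59 and 0.950 CPM in the Fgfr3-WT clones, 5.29, 10.8, 12.1, 12.3 and 15.9 in the P28 clones and 7.80, 8.62, 14.2 and 17.5 in the P4M clones. Fanci (ENSMUSG00000039187, chr7:79391929-79450264, plus strand), its partner, was at 0.782, 0.803, 0.809, 3.84 and 1.23 CPM in the Fgfr3-WT clones, 5.42, 9.18, 10.8, 7.76 and 11.04 in the P28 clones and 4.45, 4.85, 10.01 and 11.3 in the P4M clones. Neither overlapped between genotypes, with Fgfr3-WT replicate 4 again the highest of its group. Fancd2 rose 11-fold (log2 fold change 3.46 with SE 0.473, adjusted p = 8.99e-05) and Fanci 5.47-fold (log2 fold change 2.45 with SE 0.461, adjusted p = 0.000772). In GENCODE, 7 members share at least 10% of their exonic bases with another gene: Fanci (16.0%, with Polg), Rad54l (15.4%, Lrrc41), Rad54b (35.9%, Fsbp and Gm11832), Fanca (10.5%, Zfp276), Fancc (18.6%), Fancl (13.7%, Vrk2) and Trp53bp1 (15.0%, Tubgcp4). Reads in those bases cannot be given to either gene without strand, and whether the counting used strand is not given in the sources used here. Fsbp lies on the same strand as Rad54b, so strand would not resolve those reads.

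Fanca (ENSMUSG00000032815, chr8:123268300-123318576, minus strand), a scaffold of the core complex that ubiquitinates the pair, was at 1.69, 1.88, 1.86, 6.15 and 0.831 CPM in the Fgfr3-WT clones, 6.82, 15.6, 14.3, 17.5 and 27.1 in the P28 clones and 10.9, 10.8, 16.9 and 27.0 in the P4M clones. The lowest cKO clone was 1.11 times the highest Fgfr3-WT clone, and the rise was 6.55-fold (log2 fold change 2.71 with SE 0.495, adjusted p = 0.000659). Fancc, another core subunit, rose 2.02-fold (log2 fold change 1.01 with SE 0.205, adjusted p = 0.00132), also without overlap. Ube2t (ENSMUSG00000026429, chr1:134962565-134974162, plus strand), the E2 enzyme that supplies the ubiquitin, was at 0.456, 3.48, 0.971, 5.86 and 2.49 CPM in the Fgfr3-WT clones, 3.40, 6.14, 5.80, 4.67 and 5.56 in the P28 clones and 4.04, 4.44, 11.4 and 8.16 in the P4M clones. Its clones overlapped and it did not pass the test with all clones (log2 fold change 1.17 with SE 0.499, adjusted p = 0.0675), though it did without Fgfr3-WT replicate 4 (1.69, adjusted p = 0.0153), in DESeq2 (1.20, adjusted p = 0.0292), in limma on log2(TPM + 1) (1.43, adjusted p = 0.00548) and with no scaling factors (1.28, adjusted p = 0.0438).

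Fancl (ENSMUSG00000004018, chr11:26386135-26471876, plus strand), the catalytic E3 subunit, was at 9.15, 6.73, 7.97, 8.20 and 6.85 CPM in the Fgfr3-WT clones, 4.54, 4.16, 5.53, 5.78 and 6.99 in the P28 clones and 6.11, 5.55, 6.30 and 7.38 in the P4M clones. It had the most negative value of the members (log2 fold change -0.41 with SE 0.165, adjusted p = 0.0534), with overlapping clones, and was called lower at P28 (log2 fold change -0.53 with SE 0.189, adjusted p = 0.0409), a call that held in 4 of the 14 fits that left out a clone. Fance (ENSMUSG00000007570, chr17:28313519-28326572, plus strand), which contacts FANCD2, was at 23.1, 26.1, 14.8, 21.4 and 19.6 CPM in the Fgfr3-WT clones, 18.5, 21.01, 17.8, 14.1 and 16.5 in the P28 clones and 19.4, 21.6, 16.9 and 25.3 in the P4M clones (log2 fold change -0.13 with SE 0.151, adjusted p = 0.487). Fancg (ENSMUSG00000028453, chr4:43002343-43010506, minus strand), a partner of FANCA, was at 6.25, 4.74, 9.22, 5.18 and 6.09 CPM in the Fgfr3-WT clones, 8.26, 9.01, 7.41, 6.29 and 7.45 in the P28 clones and 4.04, 6.01, 5.43 and 5.11 in the P4M clones (log2 fold change -0.00 with SE 0.186, adjusted p = 0.994). Both overlapped between genotypes, and all 4 P4M clones of Fancg lay below the P28 clones (log2 fold change -0.58 with SE 0.227, adjusted p = 0.129, P4M against P28). Fancm, the translocase that brings the core complex to DNA, had a log2 fold change of 0.39 (adjusted p = 0.186) with all clones and of 0.72 (adjusted p = 0.00299) without Fgfr3-WT replicate 1. Fancb had one of 0.94 (adjusted p = 0.0551) over all cKO clones and of 1.13 (adjusted p = 0.0475) at P28. Over all cKO clones Fancb was called in DESeq2 (0.97, adjusted p = 0.0248), in limma on log2(TPM + 1) (0.82, adjusted p = 0.00824), with at least 10 counts in every clone (0.95, adjusted p = 0.0414), with no scaling factors (1.04, adjusted p = 0.032) and in 3 of the 14 fits that left out a clone.

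At the resection step, the long-range nuclease and a helicase had the largest changes. Exo1 (ENSMUSG00000039748, chr1:175880581-175913489, plus strand), the exonuclease, was at 0.521, 0.383, 0.243, 1.82 and 0.277 CPM in the Fgfr3-WT clones, 3.89, 7.48, 8.71, 11.4 and 18.98 in the P28 clones and 6.74, 8.42, 11.6 and 11.7 in the P4M clones. It had the largest change of the 37, 14.9-fold (log2 fold change 3.90 with SE 0.574, adjusted p = 0.000154), from 6 to 64 counts per Fgfr3-WT clone to 181 to 741 per cKO clone. Brip1 (ENSMUSG00000034329, chr11:86058138-86201193, minus strand), the helicase that binds BRCA1 and is also a Fanconi gene, was at 0.326, 0.497, 0.485, 2.67 and 0.396 CPM in the Fgfr3-WT clones, 3.40, 6.38, 8.57, 12.9 and 14.3 in the P28 clones and 5.97, 6.96, 13.5 and 15.4 in the P4M clones. Its lowest cKO clone was 1.27 times the highest Fgfr3-WT clone and it rose 11-fold (log2 fold change 3.46 with SE 0.617, adjusted p = 0.000558). Blm, the helicase that dissolves joined molecules, rose 2.18-fold (log2 fold change 1.13 with SE 0.218, adjusted p = 0.000955).

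Of the MRE11 complex and its cofactor, 1 of 4 genes was called over all cKO clones, near the 23.1% of all genes, so that nothing is read from the count. Mre11a, its nuclease, rose 1.53-fold over all cKO clones (log2 fold change 0.61 with SE 0.144, adjusted p = 0.00333) with overlapping clones, and had log2 fold changes of 0.43 (adjusted p = 0.0458) at P28 and 0.80 (adjusted p = 0.002) at P4M. Rad50, the ATPase of the complex, had a log2 fold change of 0.16 (adjusted p = 0.285), and Nbn, the subunit that recruits ATM, of 0.33 (adjusted p = 0.101). Rbbp8, the cofactor that activates MRE11 for cutting, had 0.37 (adjusted p = 0.0588) over all cKO clones, 0.63 (adjusted p = 0.0116) at P4M and 0.52 (adjusted p = 0.0895) for P4M against P28. Nbn also passed at P4M, with 0.51 (adjusted p = 0.0409), a call lost in 7 of 14 fits that left out a clone. Over all cKO clones, limma on log2(TPM + 1) called Rad50 (0.34, adjusted p = 0.0486), Nbn (0.51, adjusted p = 0.0134) and Rbbp8 (0.66, adjusted p = 0.00591). Rbbp8 was also called in DESeq2 (0.39, adjusted p = 0.046), with no filter (0.43, adjusted p = 0.0448) and without Fgfr3-WT replicate 2 (0.50, adjusted p = 0.0151), and Nbn with no scaling factors (0.40, adjusted p = 0.0464).

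Of the 4 kinases, Chek1 was called over all cKO clones, a share near the 23.1% of all genes. Chek1 (ENSMUSG00000032113, chr9:36708482-36727065, minus strand), the effector kinase of ATR, was at 3.19, 4.29, 6.23, 5.04 and 3.84 CPM in the Fgfr3-WT clones, 8.52, 11.6, 12.98, 19.6 and 23.6 in the P28 clones and 11.6, 9.38, 16.5 and 17.4 in the P4M clones. Chek2 (ENSMUSG00000029521, chr5:110839979-110874145, plus strand), the effector of ATM, was at 6.09, 4.40, 9.22, 6.71 and 4.08 CPM in the Fgfr3-WT clones, 8.65, 10.7, 8.77, 6.79 and 10.4 in the P28 clones and 7.45, 6.24, 11.8 and 8.34 in the P4M clones. Every cKO clone had more Chek1 than every Fgfr3-WT clone, while the Chek2 values overlapped. The rise of Chek1 was 3.20-fold (log2 fold change 1.68 with SE 0.278, adjusted p = 0.000319), and Chek2 did not pass the test (log2 fold change 0.52 with SE 0.230, adjusted p = 0.0763) except in DESeq2 (0.55, adjusted p = 0.0433), in limma on TPM (0.70, adjusted p = 0.0198) and without Fgfr3-WT replicate 3 (0.71, adjusted p = 0.0213).

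The upstream kinases did not pass the test over all cKO clones. Atm (ENSMUSG00000034218, chr9:53439149-53536740, minus strand), which responds to breaks, was at 48.7, 34.2, 35.3, 21.9 and 38.1 CPM in the Fgfr3-WT clones, 24.1, 36.3, 35.3, 30.7 and 39.7 in the P28 clones and 30.4, 28.8, 32.02 and 29.6 in the P4M clones. Atr (ENSMUSG00000032409, chr9:95857597-95951781, plus strand), which responds to single-stranded DNA, was at 46.2, 34.9, 30.4, 33.4 and 40.1 CPM in the Fgfr3-WT clones, 25.3, 27.2, 27.5, 29.5 and 32.2 in the P28 clones and 37.4, 35.96, 32.9 and 36.2 in the P4M clones. Atm ranged from 21.9 to 48.7 CPM among the Fgfr3-WT clones, wider than the range of the cKO clones, and did not pass the test (log2 fold change -0.17 with SE 0.165, adjusted p = 0.414). Atr was called lower at P28 (log2 fold change -0.38 with SE 0.126, adjusted p = 0.0272) but not at P4M (log2 fold change -0.06 with SE 0.133, adjusted p = 0.755) or over all cKO clones (log2 fold change -0.22 with SE 0.110, adjusted p = 0.115). Its call at P28 was lost without Fgfr3-WT replicate 5 or P28 replicate 1 (adjusted p up to 0.0546), and the 4 P4M clones all lay above the P28 clones (log2 fold change 0.33 with SE 0.133, adjusted p = 0.139, P4M against P28).

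Of the mediators, Clspn (ENSMUSG00000042489, chr4:126556935-126593903, plus strand), the adaptor through which ATR activates CHEK1, was at 1.04, 0.765, 0.405, 4.64 and 1.70 CPM in the Fgfr3-WT clones, 8.02, 16.1, 15.5, 31.5 and 44.3 in the P28 clones and 13.1, 14.6, 26.3 and 32.1 in the P4M clones. Topbp1 (ENSMUSG00000032555, chr9:103305215-103350428, plus strand), the activator of ATR, was at 54.4, 29.8, 27.99, 38.9 and 37.99 CPM in the Fgfr3-WT clones, 54.8, 80.7, 85.03, 90.96 and 118 in the P28 clones and 65.8, 71.1, 95.8 and 102 in the P4M clones. Clspn rose 12.9-fold (log2 fold change 3.69 with SE 0.632, adjusted p = 0.000423) from a low level, and Topbp1 rose 2.24-fold (log2 fold change 1.16 with SE 0.206, adjusted p = 0.000517) from a high level, with its lowest cKO clone only 1.01 times Fgfr3-WT replicate 1. Mdc1, which reads phosphorylated histone H2AX beside breaks, was called higher (log2 fold change 0.56 with SE 0.210, adjusted p = 0.0397) with overlapping clones. Trp53bp1 (ENSMUSG00000043909, chr2:121193281-121271407, minus strand), which opposes resection, was at 95.7, 60.1, 52.3, 35.6 and 83.6 CPM in the Fgfr3-WT clones, 53.5, 53.9, 50.6, 58.02 and 65.2 in the P28 clones and 50.9, 45.7, 47.3 and 56.7 in the P4M clones. It did not pass the test (log2 fold change -0.30 with SE 0.187, adjusted p = 0.2) except without Fgfr3-WT replicate 4, its lowest clone, where it was called lower (-0.46, adjusted p = 0.0249).

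Msh6 (ENSMUSG00000005370, chr17:87975062-87990892, plus strand), a mismatch-binding protein, was at 27.6, 34.3, 21.1, 38.5 and 55.2 CPM in the Fgfr3-WT clones, 33.2, 40.1, 40.1, 43.4 and 56.5 in the P28 clones and 33.9, 44.2, 53.5 and 39.1 in the P4M clones. The groups overlapped (log2 fold change 0.27 with SE 0.208, adjusted p = 0.298), and without Fgfr3-WT replicate 5 the log2 fold change was 0.49 (adjusted p = 0.048). A processed copy of Msh6, Gm11855, is 94.1% identical over 1872 bases but never passed 0.673 CPM.

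Single clones bore on the fold of the strongest genes. Leaving out Fgfr3-WT replicate 4 moved the fold of 7 members by over 1.5 times, all upwards, to log2 fold changes of 4.14 for Rad51ap1, 3.38 for Fanca, 4.13 for Fancd2, 3.18 for Fanci, 4.77 for Exo1, 4.51 for Brip1 and 4.50 for Clspn. Of the 19 calls over all cKO clones, 17 held in every one of the 14 fits that left out a clone. Bard1 was lost in 6 of them, without Fgfr3-WT replicate 1, 3 or 5, P28 replicate 5 or P4M replicate 3 or 4 (adjusted p up to 0.0756). Mdc1 was lost in 10 (adjusted p up to 0.105), all but those without Fgfr3-WT replicate 1, P28 replicate 1 or 2, or P4M replicate 1. Of the calls within 1 age, those of Fancb and Mre11a at P28 were each lost in 12 fits (adjusted p up to 0.106 and 0.154), that of Mdc1 at P28 in 10 (up to 0.118), that of Bard1 at P4M in 5 (up to 0.122), and that of Xrcc2 in 7 at P28 (up to 0.126) and in 7 at P4M (up to 0.117).

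The highest and lowest clone of each group were counted over the 19 called genes. Fgfr3-WT replicate 4 was the highest of its group in 12 of them, while the lowest Fgfr3-WT clone varied from gene to gene, no clone being the lowest in more than 6. P28 replicate 1 was the lowest of its group in 18 and P28 replicate 5 the highest in all 19, and P4M replicate 1 was the lowest in 15 and P4M replicate 4 the highest in 14. Summed over the 19 genes, the level was 182.1, 122.9, 122.5, 162.0 and 139.8 CPM in the Fgfr3-WT clones, 225.3, 329.6, 360.1, 425.7 and 552.1 in the P28 clones and 278.4, 302.9, 438.6 and 484.7 in the P4M clones. The largest Fgfr3-WT sum was that of replicate 1, not of replicate 4. The sums of the 2 genotypes did not overlap, and the P28 clones spanned more than the gap to Fgfr3-WT. The split by call fixes that the first sums stand apart and the second do not, so both are a description. The 18 genes that were not called summed to 358.0 ± 53.7 CPM (SD, n = 5) in Fgfr3-WT, 363.1 ± 39.2 (SD, n = 5) in P28 and 383.6 ± 29.9 (SD, n = 4) in P4M. Among these 18, Fgfr3-WT replicate 1 was the highest of its group in 9. Within groups, the called genes varied more, with a median coefficient of variation of 52.6% in Fgfr3-WT, 40.4% in P28 and 38.4% in P4M, than the other 18, at 30.7%, 16.1% and 16.5%. In Fgfr3-WT the called genes also had the lower levels, with a median of 1.54 TPM against 6.07 TPM. The part of level, or of Fgfr3-WT replicate 4, in this spread was not tested.

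Genes of the dividing cell were read beside them. Of 36 S phase genes, 31 were called higher and none lower over all cKO clones (median log2 fold change 1.72), and of 48 G2/M genes 42 were called higher and 1 lower (median 3.32). Within each cKO group their sums ran in nearly the same order over the clones as that of the called members. In Fgfr3-WT the order differed. There replicate 1 had the largest sum of called members (182.1 CPM), and replicate 4 (162.0 CPM) had the largest S phase and G2/M sums. The S phase sum was 501.8, 462.2, 468.4, 726.7 and 549.8 CPM in the Fgfr3-WT clones, 918.5, 1416, 1439, 1798 and 2476 in the P28 clones and 1284, 1450.0, 1911 and 1896 in the P4M clones. Mki67, the proliferation marker, was at 0.880, 2.41, 0.850, 33.4 and 5.74 CPM in the Fgfr3-WT clones, 49.1, 103.1, 135.8, 104.8 and 142.0 in the P28 clones and 54.9, 60.8, 147.5 and 172.5 in the P4M clones. Fgfr3-WT replicate 4 was the clone with most Mki67 of its group and P28 replicate 1 the one with least. Pcna, the replication clamp, rose by 1.09 on the log2 scale (edgeR, adjusted p = 0.00166) and Mcm2, a subunit of the replicative helicase, by 1.98 (adjusted p = 2.07e-05). The part of cell division in the members' values was not tested.

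**Figure D3:**
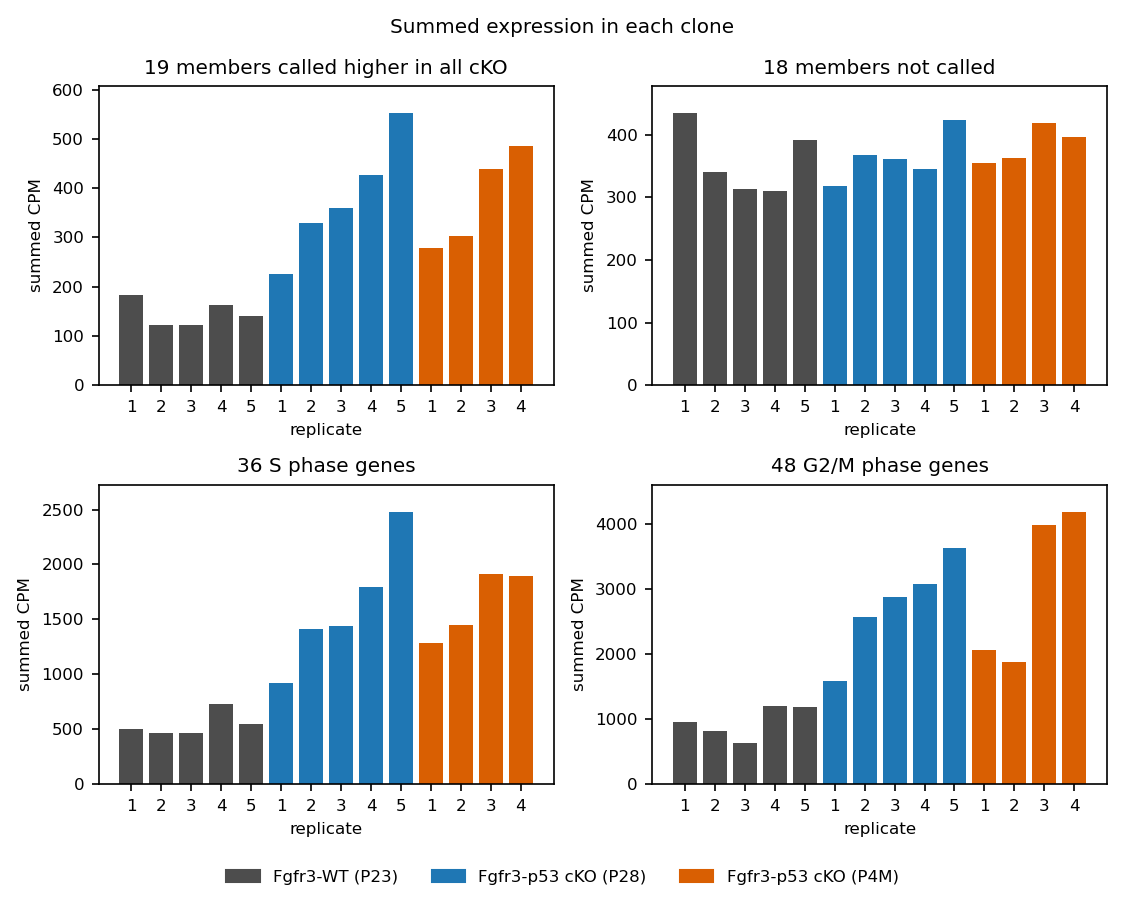
Summed CPM in each of the 14 clones (bars from 0, coloured by group) of the 19 called members, the 18 other members, 36 S phase genes and 48 G2/M genes. The called members run from 122.5 to 182.1 in Fgfr3-WT and from 225.3 to 552.1 in the cKO clones, where the S phase and G2/M sums are also higher, while the other members overlap, which the split by call fixes.

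Levels of different genes can be compared only per length, and were read in the authors' TPM (counts per length, scaled to a fixed total). The length behind the TPM is not the same in all clones. In Fgfr3-WT replicate 1, Brca1 and Brca2 were at 0.47 and 6.13 TPM beside 2.02 and 7.53 CPM. In P28 replicate 1 they were at 1.71 and 4.54 TPM beside 6.45 and 9.10 CPM. The part of such length changes in the TPM levels, ratios and limma results was not tested. In the Fgfr3-WT clones 8 of the 37 genes had a mean below 1 TPM, against 0 in P28 and 1 in P4M. As a description, since the call itself depends on the level in Fgfr3-WT, the genes called higher had the lower levels there, with a median of group means of 1.54 TPM against 6.07 TPM for the other 18. In P28 these medians were 7.69 and 9.24 TPM, and in P4M 6.15 and 7.40 TPM. The highest level in Fgfr3-WT was that of Trp53bp1 and the lowest that of Brip1, 0.192 TPM. In the cKO clones Topbp1 was the highest, at 37.2 TPM in P28 and 31.7 TPM in P4M, and Palb2 the lowest, at 1.37 and 0.750 TPM. From the lowest to the highest member, levels spanned 149-fold in Fgfr3-WT, 27.2-fold in P28 and 42.2-fold in P4M.

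**Figure D4:**
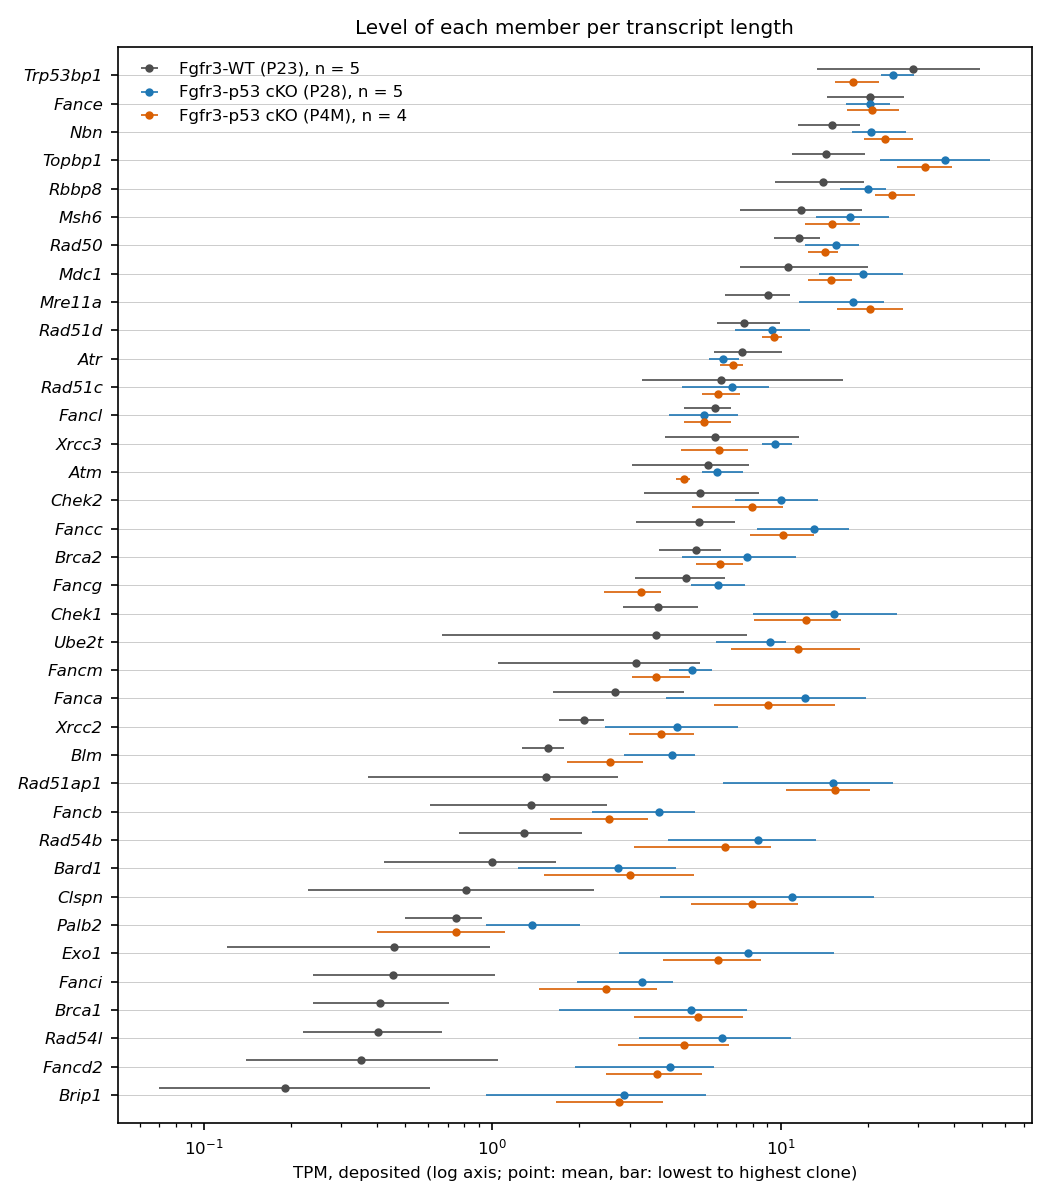
Mean TPM of each of the 37 genes in the 3 groups (log scale), with bars from the lowest to the highest clone. The genes called higher start low in Fgfr3-WT, with a median of 1.54 TPM against 6.07 TPM for the rest, and come close to the rest in the cKO groups, with 7.69 against 9.24 TPM in P28, a description, since the call depends on the Fgfr3-WT level.

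Genes whose proteins bind each other or have related roles were set against each other in 8 pairs on the TPM scale, as a description without a test. Brca1 was above its partner Bard1 in 1 of 5 Fgfr3-WT clones and in 9 of 9 cKO clones, with ratios of 0.161 to 1.12 in Fgfr3-WT, 1.39 to 2.08 in P28 and 1.48 to 2.27 in P4M. Fancd2 was above Fanci in 1 of 5 Fgfr3-WT and 8 of 9 cKO clones, as was Chek1 above Chek2 and Mre11a above Rad50. Thus, on the TPM scale, in 4 pairs the gene with the smaller level in most Fgfr3-WT clones had the larger level in most cKO clones. These orders depend on the length behind the TPM. For Mre11a and Rad50 the counts do not show it, with cKO means of 36.83 and 46.55 CPM over 5927 and 5375 exonic bases. Rad54l stayed below Rad54b in all 14 clones, but its ratio to it went from at most 0.436 in Fgfr3-WT to at least 0.602 in the cKO clones. Atr was above Atm in 4 of 5 and 7 of 9 clones, and Brca2 above Palb2 and Rad51c above Xrcc2 in all 14.

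**Figure D5:**
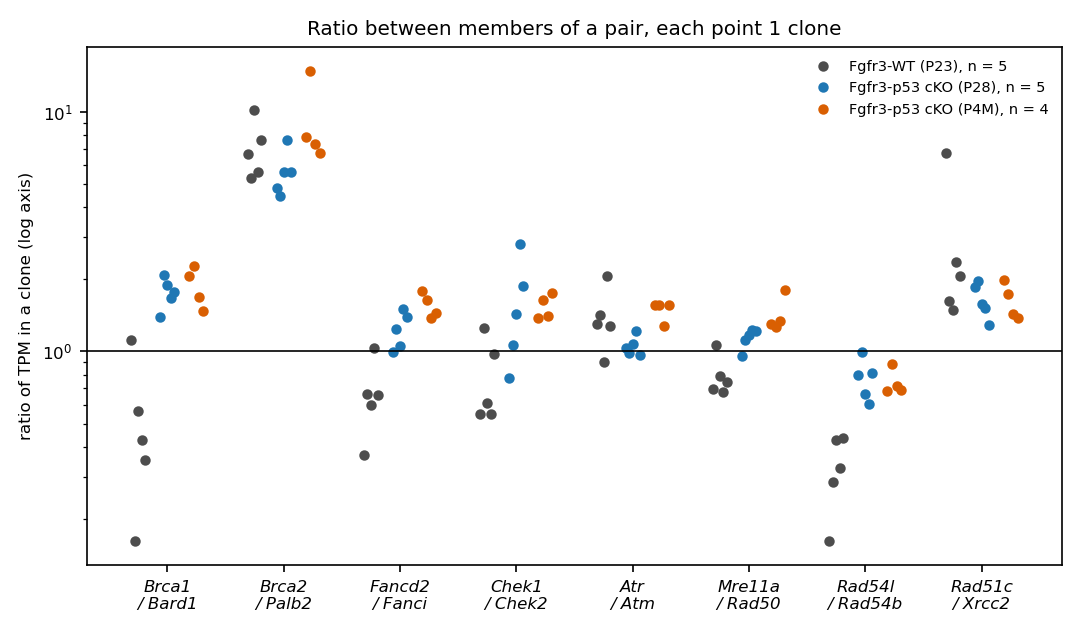
Ratio of TPM of the first to the second gene of 8 pairs in each clone (log scale, solid line at 1, points are clones coloured by group). For Brca1 over Bard1 the cKO clones lie at 1.39 or more and the Fgfr3-WT clones at 1.12 or less, and for Rad54l over Rad54b all clones lie below 1.

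The wider pathway was read from 63 other recombination, Fanconi and checkpoint genes, whose calls went both ways. Over all cKO clones 24 were called higher and 8 lower (38.1% and 12.7%, beside 23.1% and 25.7% of all genes), with a median log2 fold change of 0.17. The largest rises were of Cdc25c, the phosphatase that opens mitosis (3.35, SE 0.637, adjusted p = 0.000871), Recql4, a helicase of replication and repair (3.21, SE 0.426, adjusted p = 7.7e-05), and Rmi2, a partner of BLM (3.05, SE 0.686, adjusted p = 0.00262), the last from 0.128 ± 0.131 CPM (SD, n = 5) in Fgfr3-WT, near the level of 3 counts (0.0564 to 0.121 CPM), so that its fitted fold is uncertain.

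The largest falls in this list were of nucleases and a break-end gene. Fan1, the nuclease that the ubiquitinated FANCD2 recruits, went from 9.14 ± 1.98 CPM (SD, n = 5) in Fgfr3-WT to 4.15 ± 0.908 (SD, n = 5) in P28 and 2.32 ± 0.286 (SD, n = 4) in P4M (-1.56, SE 0.186, adjusted p = 3.5e-05). Shld1, a shieldin subunit that protects ends from resection, changed by -1.14 on the log2 scale (SE 0.186, adjusted p = 0.000291), and Ercc4, the crosslink-cutting nuclease, of -0.91 (SE 0.125, adjusted p = 8.9e-05). Fan1 and Recql were also lower at P4M than at P28, by -0.84 (adjusted p = 0.0448) and -0.66 (adjusted p = 0.0291), the only called genes of this list between the ages.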

How the data were processed

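The authors sequenced SMART-Seq v4 libraries of 14 clones as single-end reads. Per the labels and methods, reads were checked with FastQC, aligned to mm10 with TopHat and Bowtie2, and the authors counted non-ambiguous reads per gene with HTSeq. Versions and the strand setting are not given in the sources used here. The deposited count table holds whole read counts of 30503 genes with no normalization. It leaves out 24924 genes of the deposited TPM table, none of which had more than 1 count in all. TPM were scaled to a fixed total by the authors, with a length per gene that differs between clones. No 2 clones held identical counts, and the largest correlation between clones was 0.988 (Pearson r over genes, log2(CPM + 1)).

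Here the counts were fitted over all 17358 genes kept by edgeR 4.0.16 filterByExpr, in 1 model of the 3 groups with TMM scaling and the quasi-likelihood test (R 4.3.3). P-values were adjusted by Benjamini-Hochberg over all genes tested, and an adjusted p below 0.05 was a call. Each cKO group was compared with WT, the older with the younger cKO group, and both cKO groups, averaged with equal weight, with WT. CPM are counts scaled to the TMM-adjusted library total. A level of 3 counts, the limit that a count of 0 allows, is 0.0564 to 0.121 CPM, and covers counting error only.

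Alternatives were RLE scaling, no scaling factors, DESeq2 1.42.0, no filter, at least 10 counts in every clone, only the groups compared, a log2 fold change of at least 1, limma 3.58.1 on log2(TPM + 1), and leaving out each clone. The members and gene lists were chosen with earlier results of these data known. Lists were the 7 roles, other recombination genes, end joining, mismatch, base excision and nucleotide excision repair, S phase and G2/M genes, and markers of stromal, blood, endothelial and red cell lineages, and were described by counts and medians. Values in every clone are given for the 2 members of each role with the largest change, for Brca1, Brca2, Rad51c, Fancd2, Atm, Atr, Chek1 and Chek2, and for members with a log2 fold change below 0 in all cKO clones. Outside the members, the called genes with the largest rise and fall of each repair list were named (3 of each for the other recombination genes), with Trp53, Mki67, Pcna and Mcm2. Coordinates and exon overlaps are those of GENCODE M21 (GRCm38). Processed copies were sought with blastn 2.17.0, and promoters are those of RefSeq on GRCm38.p6.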

Additional observations from a re-analysis of the deposited data

Results flagged for a closer look

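A clone stood apart from the others of its group in 9 of the 111 groups of clone values examined. The measure was the gap to the nearest clone over the range of the group, with Dixon's 95% limit. That limit flags about 1 in 20 groups, or 5.55 here, for independent and normally distributed values. These genes vary together over the same clones, so 9 is not read against 5.55. Fgfr3-WT replicate 4 accounted for 6 of the 9, each as the highest clone. Its level was 2.90 CPM for Rad51ap1 (other Fgfr3-WT clones 0.383 to 0.989), 6.15 CPM for Fanca (0.831 to 1.87), 2.59 CPM for Fancd2 (0.521 to 0.950), 3.84 CPM for Fanci (0.782 to 1.23), 1.82 CPM for Exo1 (0.243 to 0.521) and 2.67 CPM for Brip1 (0.326 to 0.497). The same clone had 33.4 CPM of Mki67 against 0.850 to 5.74 in the other Fgfr3-WT clones, and the highest S phase sum of its group, 726.7 CPM. It also had the highest blood marker sum of its group, 145.3 CPM against 16.5 to 64.3, and the lowest stromal marker sum, 471.3 CPM against 760.2 to 6203. The part of these in its high values was not tested.

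Fgfr3-WT replicate 1 stood apart for 2 related genes of strand exchange, at 19.1 CPM for Rad51c (others 4.09 to 6.69) and 16.6 CPM for Xrcc3 (others 6.19 to 8.26). P28 replicate 5 stood apart for Nbn, at 37.2 CPM against 26.0 to 27.8 in the other P28 clones.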

How the results depend on the processing

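Over the 22 alternatives, values were compared for all 37 members in all cKO clones and, at each age, only for the members called there, so gains within an age are not counted. Of 1676 values, 1512 kept their direction and their side of the threshold, 123 lost a call, 27 gained one and 14 changed sign, none of them called. The members called higher numbered 15 to 25 at P28 and 13 to 21 at P4M. In all cKO clones against Fgfr3-WT, 15 to 24 members were called higher (19 in the reported fit), and 17 to 20 when a clone was left out. The count called lower was 0 in that fit, 1 with DESeq2 and 1 with at least 10 counts in every clone (Fancl in both), and 0 to 1 when a clone was left out (Trp53bp1 without Fgfr3-WT replicate 4, Fancl without P28 replicate 5). The 2 members called lower at P28 became 0 with limma on log2(TPM + 1), no filter, no scaling factors, only the groups compared or a log2 fold change of at least 1, and 0 to 2 when a clone was left out. At P4M, 0 to 1 members were called lower when a clone was left out (1 without Fgfr3-WT replicate 4), and 13 of 20 members were called higher with a log2 fold change of at least 1. For P4M against P28, the fit of only the groups compared called 2 members higher. Over all genes, a log2 fold change of at least 1 left 4040 of 6750 calls at P28, 5149 of 7969 at P4M and 4723 of 8467 in all cKO clones. P4M against P28 gave 1254 calls over all genes in the reported fit, 2814 with DESeq2, 3051 with only the groups compared and 480 to 2132 when a clone was left out (480 without P4M replicate 1, 2132 without Fgfr3-WT replicate 1). The cause of these changes was not tested.

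The log2 fold changes that changed sign in all cKO clones were those of Rad51c (0.27 with limma, -0.26 to 0.54 when a clone was left out), Rad51d (0.29 with limma), Xrcc3 (-0.021 to 0.41 when a clone was left out), Fance (0.032 with limma) and Fancg (0.023 with DESeq2, 0.010 with RLE scaling, 0.014 with at least 10 counts in every clone, 0.065 with no filter, 0.051 with no scaling factors, and -0.091 to 0.17 when a clone was left out). The single clones that turned the sign were Fgfr3-WT replicate 1 for Rad51c, Fgfr3-WT replicate 3 for Xrcc3, and Fgfr3-WT replicate 3, P28 replicate 4 and P4M replicates 1 and 4 for Fancg. Leaving out the scaling factors moved the median of all genes by 0.10 at P28 and 0.06 in all cKO clones, and that of the members by as much. No paired analysis was possible because the replicate numbers name separate clones, and the labels tie no number to a shared mouse, litter or day. Low counts limit the folds of the leading genes, with as few as 6 counts of Exo1 in a Fgfr3-WT clone. Genotype, age, time in culture and the number in the sample names cannot be told apart in comparisons with Fgfr3-WT.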

Other observations

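Repair pathways other than recombination were read over all cKO clones against Fgfr3-WT, beside the same background of 23.1% of all genes called higher and 25.7% lower. Of 11 end joining genes 1 was called higher and 2 lower (9.09% and 18.2%, median log2 fold change -0.34). Xrcc6, a subunit of the Ku ring that binds broken ends, rose from 30.2 ± 6.60 CPM (SD, n = 5) in Fgfr3-WT to 52.7 ± 7.99 (SD, n = 5) in P28 and 62.7 ± 8.45 (SD, n = 4) in P4M (0.93, SE 0.150, edgeR adjusted p = 0.000276). Polm, a gap-filling polymerase of end joining, fell from 31.0 ± 5.81 to 13.4 ± 4.01 and 9.51 ± 2.25 CPM (-1.45, SE 0.187, adjusted p = 5.8e-05). Of 6 mismatch repair genes other than Msh6, 3 were called higher and none lower, with Msh3, a mismatch-binding protein, the largest (0.89, SE 0.170, adjusted p = 0.000843).

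Of 20 base excision genes 7 were called higher and 4 lower (35.0% of the list higher, median log2 fold change 0.01). Neil1, a glycosylase for oxidised bases, fell from 8.82 ± 1.99 to 5.01 ± 1.01 and 2.89 ± 0.467 CPM (-1.21, SE 0.190, adjusted p = 0.000223), while Neil2, a related glycosylase and the largest call of the list in the other direction, was below the level of 3 counts in Fgfr3-WT (0.0157 ± 0.0216 CPM) and at 0.664 ± 0.459 CPM in P28 and 0.477 ± 0.430 CPM in P4M, so no fold is given. Of 18 nucleotide excision genes 4 were called higher and 6 lower (22.2% and 33.3%, median 0.17). Set beside the shares of all genes, nothing is read from these counts for excision repair as a whole. Rad23b, a damage recognition cofactor, rose from 125.3 ± 41.0 to 274.1 ± 26.5 and 306.0 ± 15.4 CPM (1.21, SE 0.169, adjusted p = 0.000104), and Ercc5, the nuclease that cuts beside the lesion, fell from 58.2 ± 28.2 to 21.4 ± 2.61 and 20.4 ± 2.69 CPM (-1.48, SE 0.216, adjusted p = 0.000139).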
